A study of Mus musculus with 18 samples.

Results

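Liver tumours of wild type mice were compared with the tumour-free liver tissue of wild type mice that had received the same carcinogen. The comparison took 6 of the 18 RNA-seq samples of the study, chosen by their labels, 3 WT tumours (WT) and 3 WT non-tumours (WNT). All 6 came from C57BL/6 animals of wild type genotype aged 36 weeks, and both groups had received diethylnitrosamine (DEN), an alkylating liver carcinogen, as 1 injection of 25 mg/kg into the peritoneum at postnatal day 12. According to the study's methods the mice were male, and DEN tumours were those visible on the liver surface. The other 12 samples were tumours and non-tumours of DEN-treated mice that lacked the miR-181ab1 cluster in all tissues (GKO), and the untreated, normal livers of both genotypes. The labels tie no tumour to a non-tumour of the same mouse and do not say that the 3 samples of a group came from separate mice (the study's supplement counts mice per group for mRNA levels of such tissues, without tying them to these libraries), so the comparison was unpaired and its p-values measure only the spread between these samples. The animals are wild type, and the labels of both groups differ only in tissue. The comparison therefore holds what distinguished a DEN tumour from DEN-exposed liver around tumours, and not the effect of DEN itself. Differences between the animals sampled could also enter it.

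The mature hepatocyte secretes most plasma proteins, makes bile acids and clears drugs and toxins through cytochrome P450 (CYP) enzymes, conjugating enzymes and membrane carriers. These tasks are divided along the liver lobule: Wnt signals from the central vein hold glutamine synthetase and several CYP enzymes in the pericentral cells, while urea and glucose production lies nearer to the portal vein. DEN is itself activated by a pericentral CYP enzyme, and DEN tumours of mice often carry mutations that activate the RAS and MAPK pathway. Liver tumours can return to genes of the fetal liver, of which alpha-fetoprotein is the best known.

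Levels are in TPM, transcripts per 1000000 transcripts of a sample after correction for gene length. As every sample has this same total, a large rise in a few genes lowers the share left for all others. Recovered from TPM and gene length, the depth of the 6 samples was 16022783 to 19563489 reads on genes. Hepatocyte markers were high in every sample: the 10 genes of that list added up to 205395 to 216307 TPM in the tumours and 81020.4 to 101085 TPM in the non-tumours. In bulk tissue, fewer cells of a type and less RNA per cell cannot be told apart. The samples were not equally alike within a group. WT tumours 1 and 2 differed far less from each other (chi-square per degree of freedom over genes 25.9) than other pairs of one group (153 to 294). The labels list them as separate samples and do not give the mouse or nodule of either, and they were counted as 2 samples; with both averaged into 1, limma called 111 genes higher and 74 lower in place of the counts below. WT tumour 3 stood apart from them, and WT non-tumour 2 stood apart from the other non-tumours, as given beside the genes concerned. Values below are in the order of samples 1 to 3 of each group, and a log2 fold change is tumour over non-tumour on log2(TPM + 1), which understates the change of genes at low level.

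RNA of several fetal liver genes and of albumin was higher in the tumours, and RNA of many enzymes and carriers of drug, bile acid and lipid metabolism was lower. Of 14003 genes averaging 0.5 TPM or more over the 6 samples, limma called 302 higher (2.16%) and 290 lower (2.07%) in the tumours at an adjusted p under 0.05, and in none of these 592 did tumours and non-tumours overlap. Without a test, the groups did not overlap in 3478 genes (24.8%). The median log2 fold change of all genes was -0.02. Genes called higher went from a median of 1.47 TPM in non-tumours to 13.8 in tumours, and genes called lower from 23.7 to 4.14. Over all genes tested the median in non-tumours was 5.04 TPM. The same values entered the calls and the minimum level, so these medians describe the called genes and are not a separate result. In sum the genes called higher took 227528, 204214 and 149076 TPM of the tumours and 53441, 51163 and 55952 TPM of the non-tumours, and Alb, the gene of albumin, was the largest part in the tumours. The genes called lower took 11937, 11385 and 13996 TPM of the tumours against 60383, 86936 and 65943. Without WT tumour 3, 740 genes were called higher and 623 lower, and without WT tumour 2 these were 100 and 63, so the counts depended on single samples. Of the called genes, 89 higher and 55 lower were called with each sample left out in turn.

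**Figure D1:**
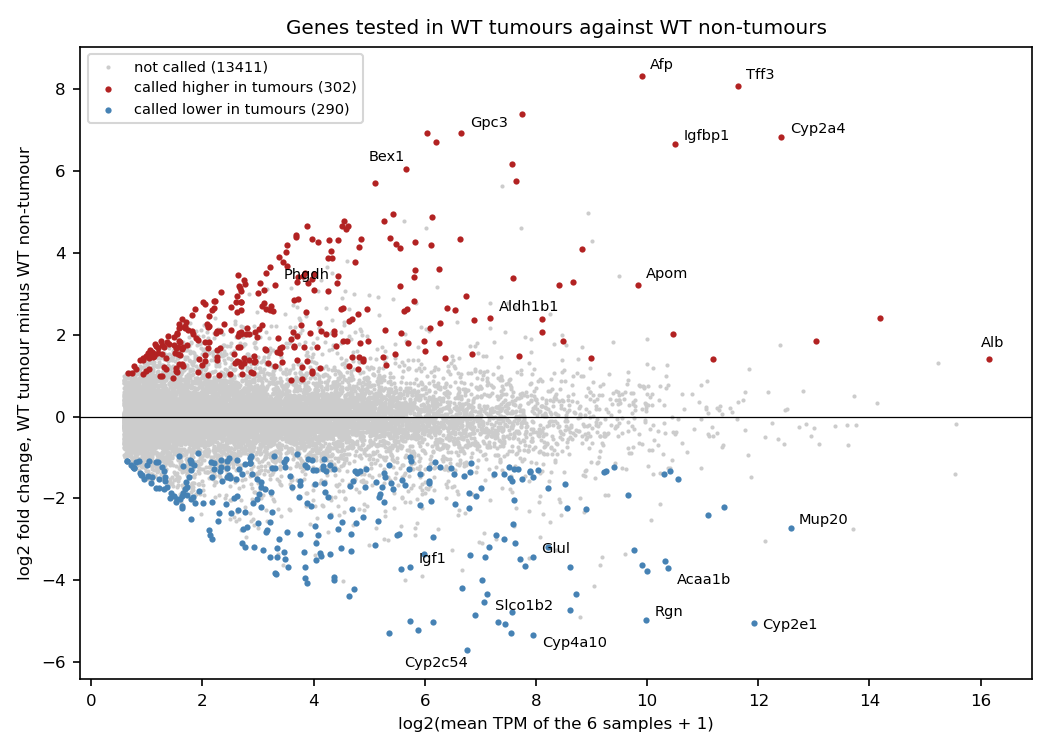
Each point is a gene, with log2 of the mean TPM + 1 of the 6 samples on the horizontal axis and the log2 fold change of WT tumours over WT non-tumours on the vertical axis, and coloured points passed limma's adjusted p of 0.05. The 302 genes called higher and 290 called lower lie on both sides of a median near 0, and Afp, at a log2 fold change of 8.33, is the highest.

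Genes of the fetal liver and known markers of liver tumours rose the most. Of 9 such genes tested (of 15 written down), 5 were called higher and 0 lower, with a median log2 fold change of 5.64, and their summed level was 7003 to 14503 TPM in the tumours and 50.9 to 89.1 TPM in the non-tumours. The number called higher was 3 without any 1 of tumours 1 and 2 or non-tumours 1 and 3, 4 without non-tumour 2 and 7 without tumour 3. Afp, which encodes the fetal plasma protein alpha-fetoprotein (chromosome 5, 90490737 to 90508907, plus strand, in mm10), was at 2353, 3334 and 66.1 TPM in the tumours and 2.38, 2.11 and 0.497 TPM in the non-tumours (log2 fold change 8.33, standard error 1.41, adjusted p = 0.0264). All tumours were above all non-tumours, but tumour 3 was far below tumours 1 and 2. Tff3, a trefoil peptide secreted by mucous epithelia (chromosome 17, 31125306 to 31129646, minus strand), was at 8160.4, 7777 and 3096 TPM in the tumours and 26.9, 5.96 and 49.2 TPM in the non-tumours (log2 fold change 8.09, standard error 0.76, adjusted p = 0.00297). Gpc3, a cell surface glypican of fetal liver (chromosome X, 52272426 to 52613950, minus strand), was at 213, 277 and 108 TPM in the tumours and 1.22, 0.182 and 0.355 TPM in the non-tumours (log2 fold change 6.93, standard error 0.41, adjusted p = 0.000864). Igfbp1, a secreted binding protein of insulin-like growth factors (chromosome 11, 7197782 to 7202546, plus strand), was at 2589.8, 2328 and 3716 TPM in the tumours and 13.3, 39.7 and 36.8 TPM in the non-tumours (log2 fold change 6.65, standard error 0.45, adjusted p = 0.00149). Tff3, Gpc3 and Igfbp1 were low in every non-tumour and abundant in every tumour, and tumour 3 was the highest for Igfbp1. Golm1, a Golgi membrane protein raised in liver disease, was also called (log2 fold change 2.19, standard error 0.38, adjusted p = 0.0271). Afp (adjusted p up to 0.103) lost its call without any 1 of tumours 1 and 2 or non-tumours 1, 2 and 3. Golm1 (adjusted p up to 0.111) lost its call without any 1 of tumours 1 and 2 or non-tumours 1 and 3.

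The remaining members did not pass the test. H19, the imprinted fetal RNA, was at 455, 538 and 5.43 TPM in the tumours and 3.71, 0.946 and 0.389 TPM in the non-tumours (adjusted p = 0.124). Spink1, a secreted trypsin inhibitor, was at 148, 236 and 0.537 TPM in the tumours and 0.865, 0.580 and 0.283 TPM in the non-tumours (adjusted p = 0.220). Both were abundant in tumours 1 and 2 and low in tumour 3, which lay close to the non-tumours or among them. Cd24a and Prom1, surface proteins of progenitor cells, overlapped between the groups (adjusted p = 0.928 and 0.507). Lin28b and Igf2bp1, regulators of fetal RNA, were at 0 TPM in all 6 samples, and Igf2, Dlk1, Meg3 and Igf2bp3 were under the minimum level for a test.

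Other genes with large rises were of varied function. Akr1c18, an aldo-keto reductase that inactivates progesterone, was at 488, 552 and 244 TPM in the tumours and 2.62, 0.507 and 1.48 TPM in the non-tumours (log2 fold change 7.41, standard error 0.43, adjusted p = 0.000864). Erich4, a gene with little known function, was at 138, 149.7 and 147 TPM in the tumours and 0.534, 0.403 and 0.262 TPM in the non-tumours (log2 fold change 6.71, standard error 0.19, adjusted p = 6.02e-05). Bex1, an X-linked gene best known from neurons, was at 84.7, 113 and 100.4 TPM in the tumours and 0.616, 0.516 and 0.403 TPM in the non-tumours (log2 fold change 6.04, standard error 0.20, adjusted p = 9.76e-05). Erich4 and Bex1 were close to even across the 3 tumours and below 1 TPM in each non-tumour. Csn3, the gene of the milk protein kappa-casein, was at 164, 134 and 92.3 TPM in the tumours, from 5636, 4560 and 3382 reads, and had 2, 2 and 1 reads in the non-tumours. The ratio of reads was 2544, with a 95% counting interval of 1089.9 to 7837 (log2 fold change 6.93, standard error 0.25, adjusted p = 0.000124). Wfdc12 and Wfdc15b encode small whey acidic protein domain inhibitors. Wfdc12 had 70, 138 and 694 reads in the tumours and 0, 0 and 2 in the non-tumours, a ratio of 423, with a 95% counting interval of 117 to 3494 (log2 fold change 4.79, standard error 0.73, adjusted p = 0.0181). Wfdc15b was at 118, 87.9 and 917 TPM in the tumours and 2.34, 1.499 and 2.09 TPM in the non-tumours (log2 fold change 6.17, standard error 0.83, adjusted p = 0.0120).

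Serpina12, the gene of the adipokine vaspin, was at 390.5, 385 and 392 TPM in the tumours and 5.01, 3.52 and 13.1 TPM in the non-tumours (log2 fold change 5.75, standard error 0.42, adjusted p = 0.00149). Klrb1b, a receptor gene of natural killer cells, was at 58.6, 58.1 and 82.6 TPM in the tumours and 0.164, 0.495 and 0.161 TPM in the non-tumours (log2 fold change 5.72, standard error 0.23, adjusted p = 0.000186), while the lymphocyte genes as a list gave 0 calls, as described below. Both were even across the tumours and low in all non-tumours. Cyp2a4, a steroid hydroxylase more abundant in female than male mouse liver, was at 16013, 14621 and 1905 TPM in the tumours and 215, 35.5 and 36.8 TPM in the non-tumours (log2 fold change 6.84, standard error 1.02, adjusted p = 0.0170). Cyp2a4 is nearly identical to Cyp2a5 (4316, 3691 and 67.4 TPM in the tumours and 752, 5896 and 1054 TPM in the non-tumours, adjusted p = 0.869), and reads could have been split between them. Miox, an inositol oxygenase of the kidney, was at 15.2, 20.7 and 216 TPM in the tumours and 0.221, 0.519 and 0.362 TPM in the non-tumours (log2 fold change 4.96, standard error 0.92, adjusted p = 0.0344). Gm35696, a predicted gene, was at 154, 149 and 95.7 TPM in the tumours and 5.25, 0.126 and 11.8 TPM in the non-tumours (log2 fold change 4.87, standard error 0.83, adjusted p = 0.0266). Miox and both whey acidic protein genes were highest in tumour 3, whereas Cyp2a4 was lowest there. Wfdc12 (adjusted p up to 0.0835) lost its call without any 1 of tumour 2 or non-tumours 1 and 3. Wfdc15b (adjusted p up to 0.0596) lost its call without any 1 of non-tumours 1 and 3. Cyp2a4 (adjusted p up to 0.0774) lost its call without any 1 of tumours 1 and 2 or non-tumour 3. Miox (adjusted p up to 0.130) lost its call without any 1 of tumours 1 and 2 or non-tumours 1, 2 and 3. Gm35696 (adjusted p up to 0.112) lost its call without any 1 of tumours 1 and 2 or non-tumour 1.

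**Figure D2:**
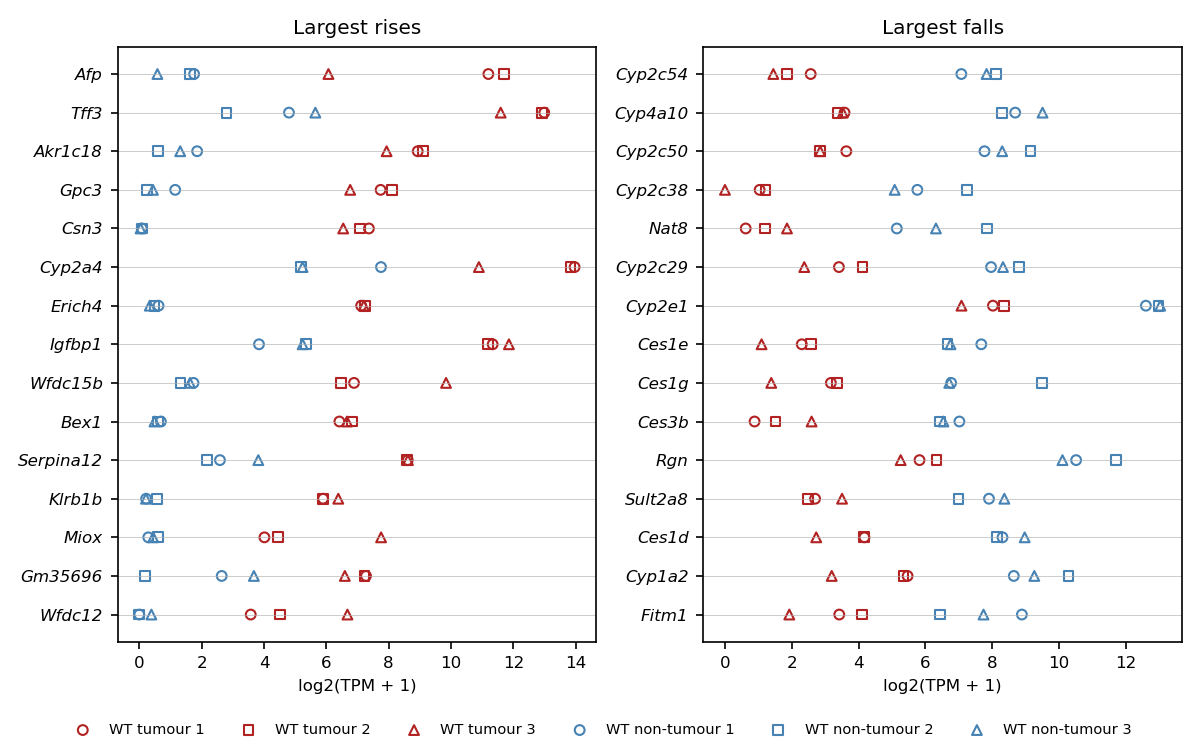
The 15 largest rises (left) and the 15 largest falls (right), with log2(TPM + 1) on the horizontal axis and 1 open symbol per sample, red for tumours and blue for non-tumours. In every gene the 3 tumour points lie on one side of the 3 non-tumour points, and Afp, Miox and Wfdc15b show the widest spread among the tumours.

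Secreted plasma proteins stayed abundant, and some rose while others fell. Of the 10 hepatocyte markers 2 were called higher and 0 lower (median log2 fold change 0.88). Alb, the gene of albumin (chromosome 5, 90460897 to 90476602, plus strand), was at 126122, 107060.0 and 83554 TPM in the tumours and 41169, 38007 and 39286 TPM in the non-tumours (log2 fold change 1.40, standard error 0.26, adjusted p = 0.0358). Serpina1b, which encodes an alpha-1 antitrypsin and has close paralogs, was at 12266, 12117 and 14956 TPM in the tumours and 4138, 2744 and 4300.0 TPM in the non-tumours (log2 fold change 1.84, standard error 0.28, adjusted p = 0.0181). Both were higher in each tumour than in any non-tumour. Apoa1, the main protein of HDL particles, was at 42343, 52848 and 69893 TPM in the tumours and 24479, 21582 and 19543 TPM in the non-tumours, without overlap, and did not pass the test (log2 fold change 1.31, adjusted p = 0.0555), and Ttr, the gene of transthyretin, overlapped (-0.21, adjusted p = 0.827). Among 17 apolipoproteins and lipid carriers, Apom was the single call: it was at 1253, 1609 and 1999 TPM in the tumours and 85.1, 165 and 347 TPM in the non-tumours (log2 fold change 3.22, standard error 0.51, adjusted p = 0.0206). Among 34 complement and coagulation genes, 3 were called higher, F11 (log2 fold change 2.28, standard error 0.44, adjusted p = 0.0394), Serpind1, the gene of heparin cofactor II (log2 fold change 1.44, standard error 0.25, adjusted p = 0.0273), and Kng1, the gene of kininogen (log2 fold change 1.41, standard error 0.27, adjusted p = 0.0363), and Mbl1, a mannose-binding lectin, was called lower (log2 fold change -2.04, standard error 0.39, adjusted p = 0.0363). The median log2 fold change of the complement and coagulation list was -0.16, and 22 of its 34 genes were below 0. That of the apolipoproteins and lipid carriers was -0.19, with 11 of 17 below 0. Alb (adjusted p up to 0.153), F11 (0.155), Kng1 (0.165) and Mbl1 (0.152) lost the call without any 1 of tumours 1 and 2 or non-tumours 1, 2 and 3. Serpina1b (adjusted p up to 0.0835) and Serpind1 (0.140) lost the call without any 1 of tumours 1 and 2 or non-tumours 1 and 3. Apom (adjusted p up to 0.0931) lost its call without any 1 of tumours 1 and 2 or non-tumour 1.

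Promoter sequences of 4 genes on either side of the comparison are shown because each holds the same core element. The TATA box, an element of the core promoter, was searched as TATAAA on both strands in promoters of 300 bases (250 before and 50 after the start). It was found in 9.32% of the 9798 tested genes with a promoter in the RefSeq table, in 10.4% of the 231 called higher and in 14.3% of the 203 called lower. The 150 bases before the start are printed 5′ to 3′ on the strand of the gene, from RefSeq on GRCm38.p6 (mm10), for Afp (chr5:90490564-90490713, plus strand), Cyp2a4 (chr7:26307042-26307191, plus strand), Ces3b (chr8:105083605-105083754, plus strand) and Orm3 (chr4:63356008-63356157, plus strand), with the motif in capitals.
Afp: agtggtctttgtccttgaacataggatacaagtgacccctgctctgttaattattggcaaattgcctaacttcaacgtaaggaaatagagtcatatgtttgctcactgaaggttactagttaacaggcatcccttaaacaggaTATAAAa
Cyp2a4: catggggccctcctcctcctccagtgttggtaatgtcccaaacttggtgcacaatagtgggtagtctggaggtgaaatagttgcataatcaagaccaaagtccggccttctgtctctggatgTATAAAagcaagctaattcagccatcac
Ces3b: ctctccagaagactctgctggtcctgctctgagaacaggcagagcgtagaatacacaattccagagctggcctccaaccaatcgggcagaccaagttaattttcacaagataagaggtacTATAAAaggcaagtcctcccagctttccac
Orm3: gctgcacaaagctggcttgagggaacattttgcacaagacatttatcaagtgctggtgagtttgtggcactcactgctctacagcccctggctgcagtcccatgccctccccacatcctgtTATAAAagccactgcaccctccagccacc
The match began 7 bases before the start in Afp, 28 in Cyp2a4, 30 in Ces3b and 29 in Orm3. Afp and Cyp2a4 were called higher, and Ces3b, a carboxylesterase, and Orm3, an orosomucoid, both described below, were called lower. Starts here are those of the RefSeq table, which can differ from the gene starts given elsewhere: that of Afp lies upstream of the one given above, so the match in Afp is farther from the latter. A match describes the letters and is not evidence of binding.

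Growth genes differed between the tumours themselves. Of 52 G2/M genes 0 were called by limma (unadjusted p under 0.05 in 5 higher and 1 lower), although their median log2 fold change was 1.02. Against the mean of the non-tumours, the median G2/M gene was at a log2 difference of 1.81, 1.44 and -0.13 in tumours 1 to 3, and non-tumours 1 to 3 stood at -0.55, 1.08 and -0.54 against the mean of the other non-tumours. Tumour 3 was therefore at the level of the non-tumours, and non-tumour 2 was above the other non-tumours. Cdk1, the mitotic kinase, was at 23.0, 18.6 and 1.01 TPM in the tumours and 0.913, 5.14 and 0.484 TPM in the non-tumours (log2 fold change 1.92, adjusted p = 0.351). Without tumour 3, 9 G2/M genes and 8 S phase genes were called higher. Of 30 S phase genes 1 was called with all samples, Mcm2, a subunit of the replicative helicase, at 5.91, 6.27 and 3.19 TPM in the tumours and 0.560, 1.58 and 1.24 TPM in the non-tumours (log2 fold change 1.52, standard error 0.30, adjusted p = 0.0438), and Pcna overlapped (0.24, adjusted p = 0.770). Of 16 G1 regulators 2 were called higher and 0 lower. Ccne1, cyclin E1, which drives entry into S phase, was at 54.5, 43.5 and 7.66 TPM in the tumours and 0.137, 0.828 and 2.20 TPM in the non-tumours (log2 fold change 3.88, standard error 0.74, adjusted p = 0.0372). Cdkn2b, an inhibitor of the G1 kinases, was at 37.7, 45.2 and 23.3 TPM in the tumours and 0.175, 7.75 and 0.344 TPM in the non-tumours (log2 fold change 3.87, standard error 0.76, adjusted p = 0.0410).

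Ccnd1, cyclin D1, was at 13.4, 14.8 and 15.9 TPM in the tumours and 2.02, 31.9 and 3.60 TPM in the non-tumours and did not pass the test (adjusted p = 0.555), as non-tumour 2 was above all tumours. Among 17 p53 target genes, Btg2, an antiproliferative gene, was the single call, at 136, 130.1 and 44.2 TPM in the tumours and 4.79, 15.8 and 3.88 TPM in the non-tumours (log2 fold change 3.58, standard error 0.61, adjusted p = 0.0265). Cdkn1a, the p21 inhibitor and best known p53 target, was at 47.9, 56.3 and 15.9 TPM in the tumours and 4.38, 17.6 and 2.39 TPM in the non-tumours (adjusted p = 0.136). The median p53 target was at a log2 difference of 1.81, 1.75 and 0.00 in tumours 1 to 3, and 10 were called higher without tumour 3. Tumour 3 again lay at the level of the non-tumours. Mcm2 (adjusted p up to 0.176), Cdkn2b (0.155) and Btg2 (0.114) lost the call without any 1 of tumours 1 and 2 or non-tumours 1 and 3. Ccne1 (adjusted p up to 0.145) lost its call without any 1 of tumours 1 and 2 or non-tumours 1, 2 and 3.

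Genes of the feedback loop that ERK signalling switches on to restrain itself lay mostly above the non-tumours in all tumours, tumour 3 included. Of 13 such genes tested, 10 were above the non-tumours in every tumour, where 24.8% of all genes did not overlap in either direction. Their median log2 fold change was 1.11, against -0.02 over all genes, and 3 passed the test. Dusp5, a phosphatase of nuclear ERK, was at 23.6, 20.04 and 25.5 TPM in the tumours and 1.03, 2.03 and 0.870 TPM in the non-tumours (log2 fold change 3.41, standard error 0.25, adjusted p = 0.00149). Etv5, a transcription factor downstream of ERK, was at 5.57, 7.42 and 4.998 TPM in the tumours and 1.51, 1.70 and 1.75 TPM in the non-tumours (log2 fold change 1.38, standard error 0.20, adjusted p = 0.0158). Spred2, an inhibitor of RAF activation, was at 10.97, 8.46 and 8.05 TPM in the tumours and 3.90, 3.63 and 3.83 TPM in the non-tumours (log2 fold change 1.07, standard error 0.19, adjusted p = 0.0315). The values of these genes within a group were close to each other. Dusp6, a phosphatase of cytoplasmic ERK (log2 fold change 1.06, adjusted p = 0.132), and Spry4, a Sprouty inhibitor (1.11, adjusted p = 0.159), did not overlap and did not pass. RNA levels do not show whether the pathway carried a mutation. The genes of this list called higher were 1 without any 1 of tumours 1 and 2 or non-tumour 1, 2 without non-tumour 3, 4 without non-tumour 2 and 5 without tumour 3. Etv5 (adjusted p up to 0.0783) and Spred2 (0.146) lost the call without any 1 of tumours 1 and 2 or non-tumours 1 and 3.

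Several enzymes and stress genes of other lists rose. Phgdh, the first enzyme of serine synthesis, was at 15.3, 23.2 and 12.4 TPM in the tumours and 0.685, 1.08 and 0.913 TPM in the non-tumours (log2 fold change 3.21, standard error 0.26, adjusted p = 0.00198). Trib3, a pseudokinase induced by amino acid and endoplasmic reticulum stress, was at 242, 176 and 143 TPM in the tumours and 13.9, 42.9 and 19.6 TPM in the non-tumours (log2 fold change 2.95, standard error 0.43, adjusted p = 0.0160). These were the 2 calls among 15 genes of serine synthesis and amino acid stress (median 0.74). Of the 15 genes, 12 had a log2 fold change above 0 and 6 lay above the non-tumours in every tumour. Over all genes, 24.8% did not overlap in either direction. Asns, asparagine synthetase, did not overlap and missed the threshold (1.96, adjusted p = 0.0602). Aldh1b1, a mitochondrial aldehyde dehydrogenase, was at 231, 227 and 270.3 TPM in the tumours and 51.2, 47.2 and 36.4 TPM in the non-tumours (log2 fold change 2.42, standard error 0.23, adjusted p = 0.00317). It was even across the tumours. In the same list of 20 retinoid and aldehyde genes 6 fell: among them Aldh1a1, which makes retinoic acid, was at 31.1, 37.5 and 121 TPM in the tumours and 467, 987 and 687 TPM in the non-tumours (log2 fold change -3.68, standard error 0.55, adjusted p = 0.0174) and Adh4, a retinol-active alcohol dehydrogenase, was at 14.0, 19.1 and 27.7 TPM in the tumours and 161, 425 and 156 TPM in the non-tumours (log2 fold change -3.43, standard error 0.46, adjusted p = 0.0113). Aldh3a2, which oxidises fatty aldehydes (log2 fold change -3.20, standard error 0.47, adjusted p = 0.0158), and Rdh16, a retinol dehydrogenase (log2 fold change -1.84, standard error 0.28, adjusted p = 0.0174), also fell. The number of retinoid and aldehyde genes called lower was 0 without tumour 1, 1 without any 1 of tumour 2 or non-tumours 1 and 3, 5 without non-tumour 2 and 7 without tumour 3, and that of serine and stress genes called higher was 1 without any 1 of tumours 1 and 2 or non-tumours 1 and 3 and 4 without any 1 of tumour 3 or non-tumour 2. Trib3 (adjusted p up to 0.0744), Aldh1a1 (0.0834) and Rdh16 (0.0891) lost the call without any 1 of tumours 1 and 2 or non-tumours 1 and 3. Adh4 (adjusted p up to 0.0613) lost its call without any 1 of tumours 1 and 2. Aldh3a2 (adjusted p up to 0.0618) lost its call without any 1 of tumour 1 or non-tumours 1 and 3.

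Of 28 NRF2 and glutathione genes, which defend against oxidants, 1 was called: Gstp2, a glutathione transferase long used as a marker of liver lesions, was at 712, 581 and 499.8 TPM in the tumours and 27.0, 168 and 53.2 TPM in the non-tumours (log2 fold change 3.22, standard error 0.62, adjusted p = 0.0381), with a close paralog, Gstp1. Nqo1, a standard NRF2 target, was at 291, 284 and 11.7 TPM in the tumours and 14.5, 118 and 12.9 TPM in the non-tumours (adjusted p = 0.542). The median NRF2 gene of non-tumour 2 was at a log2 difference of 2.12 from the other non-tumours, and that of tumours 1 to 3 was at 0.46, 0.43 and -1.18 from the mean of all non-tumours. Non-tumour 2 thus stood above the other non-tumours for these genes. Of 15 aldo-keto reductases 3 were called higher and 0 lower: Akr1c18 as given above, Akr1b3, aldose reductase (log2 fold change 2.03, standard error 0.24, adjusted p = 0.00710), and Akr1b8 (log2 fold change 1.70, standard error 0.31, adjusted p = 0.0339). The family as a whole did not rise: its median log2 fold change was -0.35, and 9 of the 15 were below 0. In every tumour 5 lay below the non-tumours and 3 above, beside 24.8% of all genes without overlap in either direction. The 22 acute-phase genes had a median log2 fold change of -0.03, with Il1rn, the interleukin-1 receptor antagonist, higher at 28.5, 19.6 and 25.6 TPM in the tumours and 1.80, 0.774 and 1.62 TPM in the non-tumours (log2 fold change 3.43, standard error 0.26, adjusted p = 0.00149) and Orm3, an orosomucoid, lower at 0, 0 and 1.61 TPM in the tumours and 6.61, 27.6 and 9.43 TPM in the non-tumours (log2 fold change -3.25, standard error 0.59, adjusted p = 0.0314). Lcn2, lipocalin 2, was at 869, 906 and 971 TPM in the tumours and 6.26, 47.7 and 281 TPM in the non-tumours and did not pass (adjusted p = 0.107). Of 16 interferon-stimulated genes, Ifi27l2b (log2 fold change 3.28, standard error 0.61, adjusted p = 0.0352) and Oas1a, an antiviral RNA sensor (log2 fold change 1.70, standard error 0.29, adjusted p = 0.0271), rose, and Ifit1 overlapped (adjusted p = 0.956). Gstp2 (adjusted p up to 0.151), Akr1b8 (0.143), Orm3 (0.131) and Ifi27l2b (0.143) lost the call without any 1 of tumours 1 and 2 or non-tumours 1 and 3. Oas1a (adjusted p up to 0.125) lost its call without any 1 of tumours 1 and 2 or non-tumour 1.

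The largest losses were of CYP enzymes. Of 13 Cyp2c genes tested, which hydroxylate drugs, steroids and fatty acids, 7 were called lower and 0 higher, with a median log2 fold change of -3.49. Cyp2c54 was at 4.92, 2.62 and 1.73 TPM in the tumours and 134, 275 and 227 TPM in the non-tumours (log2 fold change -5.72, standard error 0.39, adjusted p = 0.00149). Cyp2c50 was at 11.4, 6.17 and 6.21 TPM in the tumours and 217, 566 and 314 TPM in the non-tumours (log2 fold change -5.30, standard error 0.41, adjusted p = 0.00158). In both, the highest tumour was more than 10 times below the lowest non-tumour. Cyp2c29 was at 9.64, 16.3 and 4.18 TPM in the tumours and 249, 445 and 319 TPM in the non-tumours (log2 fold change -5.06, standard error 0.47, adjusted p = 0.00291), Cyp2c38 fell by 5.28 on the log2 scale (adjusted p = 0.00613) and Cyp2c37 by 4.20 (adjusted p = 0.00382). Cyp2c genes are close paralogs, so reads could have been split among them, and single members are less certain than the family. Between 5 and 8 of them were called lower with single samples left out.

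Cyp2e1, the pericentral enzyme that activates DEN (chromosome 7, 140763739 to 140774987, plus strand), was at 259, 324 and 134 TPM in the tumours and 6199.8, 8049 and 8350.4 TPM in the non-tumours (log2 fold change -5.05, standard error 0.37, adjusted p = 0.00149). It was the most abundant of the CYP genes named here in the non-tumours, and each tumour held a small fraction of it. Cyp1a2, which clears caffeine and activates aromatic amines, was at 43.2, 39.6 and 8.16 TPM in the tumours and 399, 1245 and 612 TPM in the non-tumours (log2 fold change -4.73, standard error 0.70, adjusted p = 0.0162). Cyp3a11, the main drug-metabolising CYP of its family, was at 137, 136 and 119 TPM in the tumours and 1085, 3157 and 572 TPM in the non-tumours (log2 fold change -3.25, standard error 0.59, adjusted p = 0.0314). Cyp2j5, an epoxygenase of arachidonic acid, was at 5.88, 7.94 and 53.5 TPM in the tumours and 217, 249 and 249 TPM in the non-tumours (log2 fold change -3.996, standard error 0.74, adjusted p = 0.0344). These were the 4 falls among 26 other genes of families 1 to 3, where Cyp2a4 was the single rise, and the falls were 1 without any 1 of tumour 2 or non-tumour 1, 2 without any 1 of tumour 1 or non-tumour 3, 5 without non-tumour 2 and 8 without tumour 3. Of 11 Cyp4 genes, which hydroxylate fatty acids at their end and many of which are PPAR-alpha targets, 4 were called lower and 0 higher (median -2.13), and those called lower were 3 without any 1 of tumours 1 and 2 or non-tumours 1 and 3 and 6 without any 1 of tumour 3 or non-tumour 2. Cyp4a10 was at 10.96, 9.35 and 10.5 TPM in the tumours and 411, 315 and 726 TPM in the non-tumours (log2 fold change -5.34, standard error 0.33, adjusted p = 0.00112). Cyp4a14 fell short of the threshold in spite of a log2 fold change of -4.90 (adjusted p = 0.0568), as the non-tumours ranged from 76.2 to 1930.3 TPM, and Cyp4a12b (log2 fold change -4.38, standard error 0.49, adjusted p = 0.00613), Cyp4f14 (log2 fold change -2.95, standard error 0.28, adjusted p = 0.00314) and Cyp4f15 (log2 fold change -2.13, standard error 0.37, adjusted p = 0.0290) passed. Cyp1a2 (adjusted p up to 0.0618) lost its call without any 1 of tumour 2 or non-tumours 1 and 3. Cyp3a11 (adjusted p up to 0.125) lost its call without any 1 of tumours 1 and 2 or non-tumour 1. Cyp2j5 (adjusted p up to 0.139) lost its call without any 1 of tumours 1 and 2 or non-tumours 1, 2 and 3. Cyp4f15 (adjusted p up to 0.130) lost its call without any 1 of tumours 1 and 2 or non-tumours 1 and 3.

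The promoter of Cyp3a11 is shown for the motif of HNF4A, a nuclear receptor of hepatocytes, searched as CAAAGTCCA on both strands. It was present in 0.674% of all promoters searched, in 3.45% of those called lower (7 of 203) and in 0% of those called higher. The motif is in capitals within the 150 bases before the start (chr5:145879855-145880004, minus strand, GRCm38.p6, RefSeq).
Cyp3a11: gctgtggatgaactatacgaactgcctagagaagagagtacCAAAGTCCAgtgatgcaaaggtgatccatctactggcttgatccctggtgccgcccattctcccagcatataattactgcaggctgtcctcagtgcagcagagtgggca
The match began 109 bases before the start. Hnf4a itself was at 166, 162 and 217 TPM in the tumours and 133, 183 and 176 TPM in the non-tumours and overlapped (log2 fold change 0.15, adjusted p = 0.804). The other motifs searched were the core of the antioxidant response element, TGACNNNGC (17% of all promoters, 18.6% of those called higher and 14.3% of those called lower) and the E2F site TTTCCCGC (2.27%, 0.866% and 0%). None of these motifs overlaps another in its letters, and the shares are descriptions without a test.

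Conjugating enzymes, carriers and esterases fell with the CYP genes. Of 30 conjugation enzymes 10 were called lower and 1 higher, with a median log2 fold change of -1.42. Of the 30, 18 lay below the non-tumours in every tumour, while 24.8% of all genes did not overlap in either direction. Nat8, an acetyltransferase of cysteine conjugates, was at 0.539, 1.30 and 2.62 TPM in the tumours and 34.4, 229.9 and 78.6 TPM in the non-tumours (log2 fold change -5.21, standard error 0.68, adjusted p = 0.0104). Sult2a8, a bile acid sulfotransferase, was at 5.49, 4.60 and 10.3 TPM in the tumours and 238, 126 and 328 TPM in the non-tumours (log2 fold change -4.86, standard error 0.43, adjusted p = 0.00263). Both were low in all tumours beside the non-tumours. The glycosyltransferases Ugt3a1 (log2 fold change -2.60, standard error 0.45, adjusted p = 0.0280) and Ugt3a2 (log2 fold change -2.24, standard error 0.46, adjusted p = 0.0461) fell, whereas Ugt1a1, which conjugates bilirubin, overlapped because tumour 3, at 39.3 TPM, lay among the non-tumours (adjusted p = 0.340). Tpmt, a thiopurine methyltransferase, was the single rise, at 41.2, 36.1 and 47.9 TPM in the tumours and 18.4, 12.8 and 14.4 TPM in the non-tumours (log2 fold change 1.40, standard error 0.23, adjusted p = 0.0231). Conjugation enzymes called lower were 1 without tumour 2, 2 without tumour 1, 3 without non-tumour 1, 4 without non-tumour 3, 8 without non-tumour 2 and 13 without tumour 3. Nat8 (adjusted p up to 0.0541) lost its call without any 1 of tumours 1 and 2. Ugt3a1 (adjusted p up to 0.122) and Tpmt (0.113) lost the call without any 1 of tumours 1 and 2 or non-tumours 1 and 3. Ugt3a2 (adjusted p up to 0.180) lost its call without any 1 of tumours 1 and 2 or non-tumours 1, 2 and 3.

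Of 23 genes of bile acid synthesis and transport 8 were called lower and 0 higher (median -1.64). Cyp7a1, the rate-limiting enzyme of bile acid synthesis, was at 0.754, 0.758 and 0.679 TPM in the tumours and 11.6, 15.3 and 51.6 TPM in the non-tumours (log2 fold change -3.68, standard error 0.51, adjusted p = 0.0134). Cyp27a1, which starts the alternative route, was at 22.4, 25.7 and 73.1 TPM in the tumours and 239, 268 and 296 TPM in the non-tumours (log2 fold change -2.90, standard error 0.45, adjusted p = 0.0195). Slco1b2, an uptake carrier of bile acids, bilirubin and drugs (chromosome 6, 141629518 to 141686646, plus strand), was at 6.50, 10.6 and 22.3 TPM in the tumours and 182, 363 and 244 TPM in the non-tumours (log2 fold change -4.33, standard error 0.46, adjusted p = 0.00518). For these genes all tumours were below all non-tumours, with tumour 3 the nearest to them for Cyp27a1 and Slco1b2. Slco1a4, another organic anion carrier, also fell (log2 fold change -3.32, standard error 0.39, adjusted p = 0.00722). With samples left out in turn, the count of this list called lower was 2 without tumour 2, 3 without tumour 1, 4 without any 1 of non-tumours 1 and 3, 9 without non-tumour 2 and 12 without tumour 3. Slc10a1, the sodium-dependent bile acid carrier, was at 7.54, 15.4 and 92.4 TPM in the tumours and 189, 127 and 319 TPM in the non-tumours, without overlap, and did not pass (adjusted p = 0.113). Among the largest falls were 4 carboxylesterases of chromosome 8, which split ester drugs and lipids: Ces1e (log2 fold change -5.03, standard error 0.46, adjusted p = 0.00290), Ces1g (log2 fold change -5.02, standard error 0.87, adjusted p = 0.0276), Ces3b (log2 fold change -4.997, standard error 0.44, adjusted p = 0.00263) and Ces1d (log2 fold change -4.79, standard error 0.45, adjusted p = 0.00313). Ces1d was at 17.1, 16.9 and 5.64 TPM in the tumours and 316, 282 and 501 TPM in the non-tumours, and as close paralogs these genes could share reads. Cyp7a1 (adjusted p up to 0.0643) lost its call without any 1 of tumours 1 and 2. Cyp27a1 (adjusted p up to 0.0911) and Ces1g (0.0862) lost the call without any 1 of tumours 1 and 2 or non-tumours 1 and 3.

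The Wnt-dependent pericentral programme was low in every tumour. All 15 genes of the Wnt and glutamine synthetase programme lay below the non-tumours in all 3 tumours. Over all genes, 24.8% did not overlap in either direction. In the programme, 8 genes were called lower and 0 higher, and the median log2 fold change was -2.36. The summed level of the 15 genes was 207 to 414 TPM in the tumours and 3293 to 6485 TPM in the non-tumours. Glul, glutamine synthetase (chromosome 1, 153899944 to 153909723, plus strand), was at 49.98, 42.5 and 18.5 TPM in the tumours and 488, 159 and 715 TPM in the non-tumours (log2 fold change -3.44, standard error 0.62, adjusted p = 0.0320). Axin2, a direct feedback target of beta-catenin, was at 0.395, 0.310 and 0.226 TPM in the tumours and 3.29, 6.12 and 2.60 TPM in the non-tumours (log2 fold change -1.87, standard error 0.29, adjusted p = 0.0185). Tbx3, a transcription factor of pericentral cells, was at 1.13, 2.44 and 0.359 TPM in the tumours and 13.8, 12.1 and 17.4 TPM in the non-tumours (log2 fold change -2.83, standard error 0.36, adjusted p = 0.00933). No tumour approached a non-tumour in Axin2 or Tbx3. Lect2, a secreted factor and Wnt target of the liver (log2 fold change -3.19, standard error 0.66, adjusted p = 0.0468), and Rgn, the calcium-binding regucalcin, at 55.6, 79.5 and 37.3 TPM in the tumours and 1458, 3342 and 1098 TPM in the non-tumours (log2 fold change -4.97, standard error 0.48, adjusted p = 0.00339), fell as well. Of the other called members, chosen after their values were seen, Notum, a secreted Wnt inhibitor, was at 3.92, 4.10 and 5.41 TPM in the tumours and 25.2, 44.1 and 40.7 TPM in the non-tumours (log2 fold change -2.75, standard error 0.27, adjusted p = 0.00370) and Sp5, a transcription factor induced by Wnt, was at 0.518, 1.22 and 0.108 TPM in the tumours and 8.29, 8.63 and 4.67 TPM in the non-tumours (log2 fold change -2.36, standard error 0.33, adjusted p = 0.0143). Glul (adjusted p up to 0.127) lost its call without any 1 of tumours 1 and 2 or non-tumours 1 and 3. Axin2 (adjusted p up to 0.0852) lost its call without any 1 of tumours 1 and 2 or non-tumour 1. Tbx3 (adjusted p = 0.0513) lost its call without non-tumour 1. Lect2 (adjusted p up to 0.166) lost its call without any 1 of tumours 1, 2 and 3 or non-tumours 1, 2 and 3. Sp5 (adjusted p up to 0.0709) lost its call without any 1 of tumour 1 and non-tumour 1.

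Of 15 pericentral genes 9 were called lower and 0 higher, with a median log2 fold change of -3.19. The groups did not overlap in 13, against 24.8% of all genes in either direction. Glul, Axin2, Tbx3, Lect2, Rgn, Oat, Rhbg, Slc1a2 and Gulo are also in the Wnt list, so the counts are not separate. The remaining called genes of the list, Cyp2e1, Cyp1a2, Cyp2c29 and Aldh1a1, were given above with other lists. The summed level of the list was 532 to 5056 TPM in the tumours and 11652 to 23043 TPM in the non-tumours. The wide range within the tumours came from Cyp2a5, which was low in tumour 3 and whose reads could be mixed with those of Cyp2a4. Oat, ornithine aminotransferase, was at 167, 93.8 and 9.36 TPM in the tumours and 1096, 948 and 869 TPM in the non-tumours and did not pass (adjusted p = 0.0671). Of 16 periportal genes 1, Alb, was called higher and 0 lower, with a median of 0.25. Cyp2f2, a periportal CYP, was at 13.4, 18.3 and 35.98 TPM in the tumours and 419, 30.1 and 407 TPM in the non-tumours (adjusted p = 0.169), with non-tumour 2 among the tumours, and Hal, histidine ammonia lyase, was at 245, 170.1 and 147 TPM in the tumours and 129.7, 18.4 and 109 TPM in the non-tumours (adjusted p = 0.309). The difference between the pericentral and periportal lists was not itself tested. Pericentral genes called lower were 3 without non-tumour 1, 4 without tumour 2, 5 without any 1 of tumour 1 or non-tumour 3, 9 without tumour 3 and 10 without non-tumour 2. Those of the Wnt programme were 2 without non-tumour 1, 3 without tumour 1, 4 without tumour 2, 5 without non-tumour 3, 8 without tumour 3 and 9 without non-tumour 2.

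**Figure D3:**
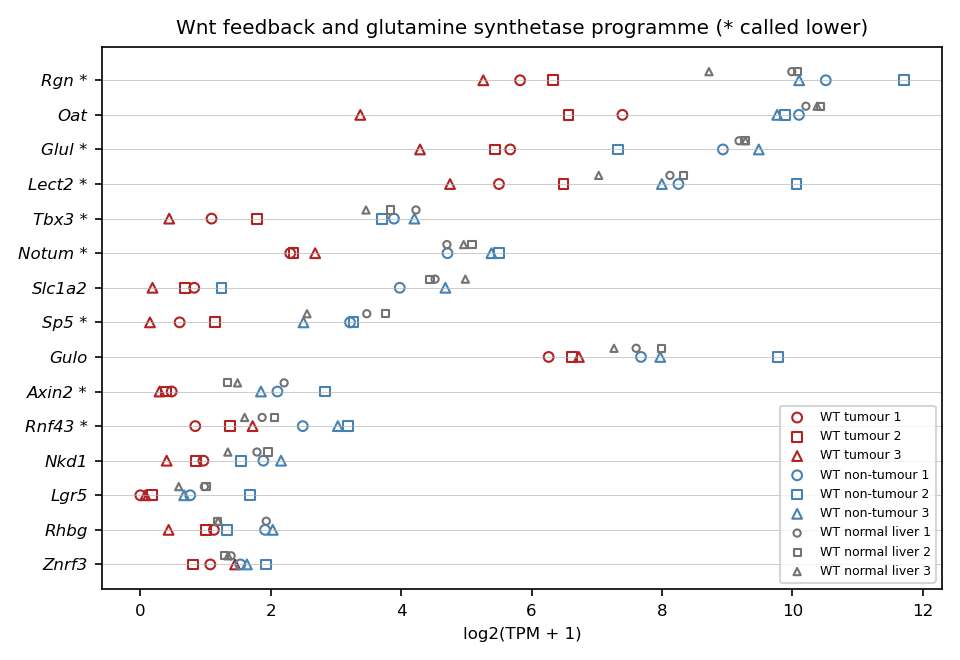
Genes of the Wnt and glutamine synthetase programme, with log2(TPM + 1) on the horizontal axis and 1 open symbol per sample, red for WT tumours, blue for WT non-tumours and grey for WT normal livers, and an asterisk at genes called lower. In all 15 genes the 3 tumour points lie below the 3 non-tumour points, including Axin2 at 0.226 to 0.395 against 2.60 to 6.12 TPM.

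Several enzymes of peroxisomal, cytosolic and mitochondrial fatty acid use fell, and so did the glucose carrier of the hepatocyte. Of 30 genes of fatty acid oxidation and PPAR-alpha 6 were called lower and 0 higher, with a median log2 fold change of -1.41. Of the 30, 17 lay below the non-tumours in every tumour, beside 24.8% of all genes without overlap in either direction. Acaa1b, a peroxisomal thiolase, was at 117, 148 and 385 TPM in the tumours and 2581, 2204 and 2569 TPM in the non-tumours (log2 fold change -3.69, standard error 0.45, adjusted p = 0.00827). Acot1, a cytosolic acyl-CoA thioesterase and PPAR-alpha target, was at 1.23, 1.55 and 1.16 TPM in the tumours and 21.5, 38.3 and 88.4 TPM in the non-tumours (log2 fold change -4.22, standard error 0.48, adjusted p = 0.00613). Acot1 was even across the tumours, and Acaa1b was highest in tumour 3. Acot3 (log2 fold change -3.69, standard error 0.42, adjusted p = 0.00613) and Acot4 (log2 fold change -1.71, standard error 0.29, adjusted p = 0.0255) fell, and so did the mitochondrial enzymes Cpt2, a carnitine palmitoyltransferase (log2 fold change -1.36, standard error 0.24, adjusted p = 0.0310), and Acadm, the medium-chain acyl-CoA dehydrogenase (log2 fold change -1.24, standard error 0.25, adjusted p = 0.0419), both named after their values were seen. Cpt1a, the entry step of mitochondrial oxidation, overlapped (log2 fold change 0.41, adjusted p = 0.637). The median gene of the list was at a log2 difference of -1.78, -1.83 and -0.46 in tumours 1 to 3, and the number called lower was 3 without any 1 of tumours 1 and 2 or non-tumours 1 and 3, 5 without non-tumour 2 and 19 without tumour 3. Of 15 lipogenesis genes, Me1, malic enzyme, was the single call, lower at 24.6, 17.4 and 19.6 TPM in the tumours and 52.6, 52.1 and 60.0 TPM in the non-tumours (log2 fold change -1.39, standard error 0.22, adjusted p = 0.019999), and Fasn, fatty acid synthase, overlapped (0.01, adjusted p = 0.996). Fitm1, a membrane protein that helps to form lipid droplets, was at 9.72, 16.0 and 2.80 TPM in the tumours and 473, 85.6 and 213 TPM in the non-tumours (log2 fold change -4.54, standard error 0.75, adjusted p = 0.0240). Acot4 (adjusted p up to 0.117), Me1 (0.113) and Fitm1 (0.0897) lost the call without any 1 of tumours 1 and 2 or non-tumours 1 and 3. Cpt2 (adjusted p up to 0.152) and Acadm (0.192) lost the call without any 1 of tumours 1 and 2 or non-tumours 1, 2 and 3.

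Of 24 genes of cholesterol synthesis and uptake 0 were called by limma (unadjusted p under 0.05 in 3 higher and 0 lower), with a median of 0.51. Sqle, squalene epoxidase, was at 39.3, 33.7 and 40.1 TPM in the tumours and 1.54, 46.6 and 4.57 TPM in the non-tumours (adjusted p = 0.288). Non-tumour 2 was above the tumours and the other non-tumours below them. Without non-tumour 2, 8 genes of the list were called higher. Slc2a2, the glucose carrier GLUT2, was at 7.27, 9.24 and 12.3 TPM in the tumours and 59.3, 108 and 69.2 TPM in the non-tumours (log2 fold change -2.89, standard error 0.30, adjusted p = 0.00487). Every tumour was below every non-tumour. Slc2a2 was 1 of 2 calls among 14 gluconeogenesis and hepatic glucose genes, where Pck1 and G6pc overlapped (adjusted p = 0.844 and 0.442). Of 17 glycolysis genes, Pfkl, the liver phosphofructokinase subunit, fell (log2 fold change -1.11, standard error 0.23, adjusted p = 0.0463). Pkm, the pyruvate kinase that many tumours raise, was at 15.2, 26.9 and 6.73 TPM in the tumours and 9.25, 9.72 and 10.4 TPM in the non-tumours (adjusted p = 0.599). Pfkl (adjusted p up to 0.201) lost its call without any 1 of tumours 1 and 2 or non-tumours 1, 2 and 3.

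Hormone-dependent genes and regulators of the hepatocyte gave few calls. Of 12 growth hormone axis genes 2 fell. Igf1, the circulating growth factor made in response to growth hormone, was at 3.22, 3.15 and 21.2 TPM in the tumours and 107, 63.2 and 115 TPM in the non-tumours (log2 fold change -3.67, standard error 0.67, adjusted p = 0.0330). Prlr, the prolactin receptor, was at 3.81, 2.27 and 1.54 TPM in the tumours and 11.1, 10.3 and 13.7 TPM in the non-tumours (log2 fold change -1.88, standard error 0.28, adjusted p = 0.0162). Ghr, the growth hormone receptor, was lower without overlap and did not pass (-1.46, adjusted p = 0.0678). Of 17 male-biased liver genes 1 was called: Mup20, a major urinary protein with many near-identical relatives, was at 1534, 1509 and 1538 TPM in the tumours and 7884, 16087 and 8204 TPM in the non-tumours (log2 fold change -2.73, standard error 0.33, adjusted p = 0.00821). The median of this list was -2.26, and non-tumour 2 was at a log2 difference of -3.09 from the other non-tumours, so that without it 8 of the genes were called lower. Of 9 female-biased genes, Cyp2a4 and Cyp17a1, a steroid hydroxylase at 119, 72.5 and 54.7 TPM in the tumours and 20.2, 3.96 and 5.24 TPM in the non-tumours (log2 fold change 3.18, standard error 0.58, adjusted p = 0.0334), rose and Acot3 fell.

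Among 22 hepatocyte transcription factors 2 fell and 0 rose (median -0.44). Onecut2, a factor of liver development, was at 0.298, 0.309 and 1.88 TPM in the tumours and 10.95, 10.6 and 9.66 TPM in the non-tumours (log2 fold change -2.75, standard error 0.34, adjusted p = 0.00827). Igf1 (adjusted p up to 0.128) lost its call without any 1 of tumours 1 and 2 or non-tumours 1 and 3. Prlr (adjusted p up to 0.0835) lost its call without any 1 of tumour 2 or non-tumours 1 and 3. Mup20 (adjusted p = 0.0503) lost its call without tumour 2. Cyp17a1 (adjusted p up to 0.130) lost its call without any 1 of tumours 1 and 2 or non-tumours 2 and 3. Onecut2 (adjusted p = 0.0507) lost its call without non-tumour 1. Several other functions of the liver gave few or no calls. Of 8 urea cycle genes 0 were called by limma (unadjusted p under 0.05 in 0 higher and 2 lower), and Cps1 overlapped (adjusted p = 0.721). Of 32 genes of amino acid breakdown, Hpd, an enzyme of tyrosine breakdown, was the single call, lower at 921, 835 and 587 TPM in the tumours and 2407, 2305 and 1941 TPM in the non-tumours (log2 fold change -1.52, standard error 0.27, adjusted p = 0.0290). Hpd (adjusted p up to 0.122) lost its call without any 1 of tumours 1 and 2 or non-tumours 1, 2 and 3. Of 15 clock genes 0 were called (unadjusted p under 0.05 in 1 higher and 0 lower, median -0.35). A p that misses the threshold does not show that these genes were alike.

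**Figure D4:**
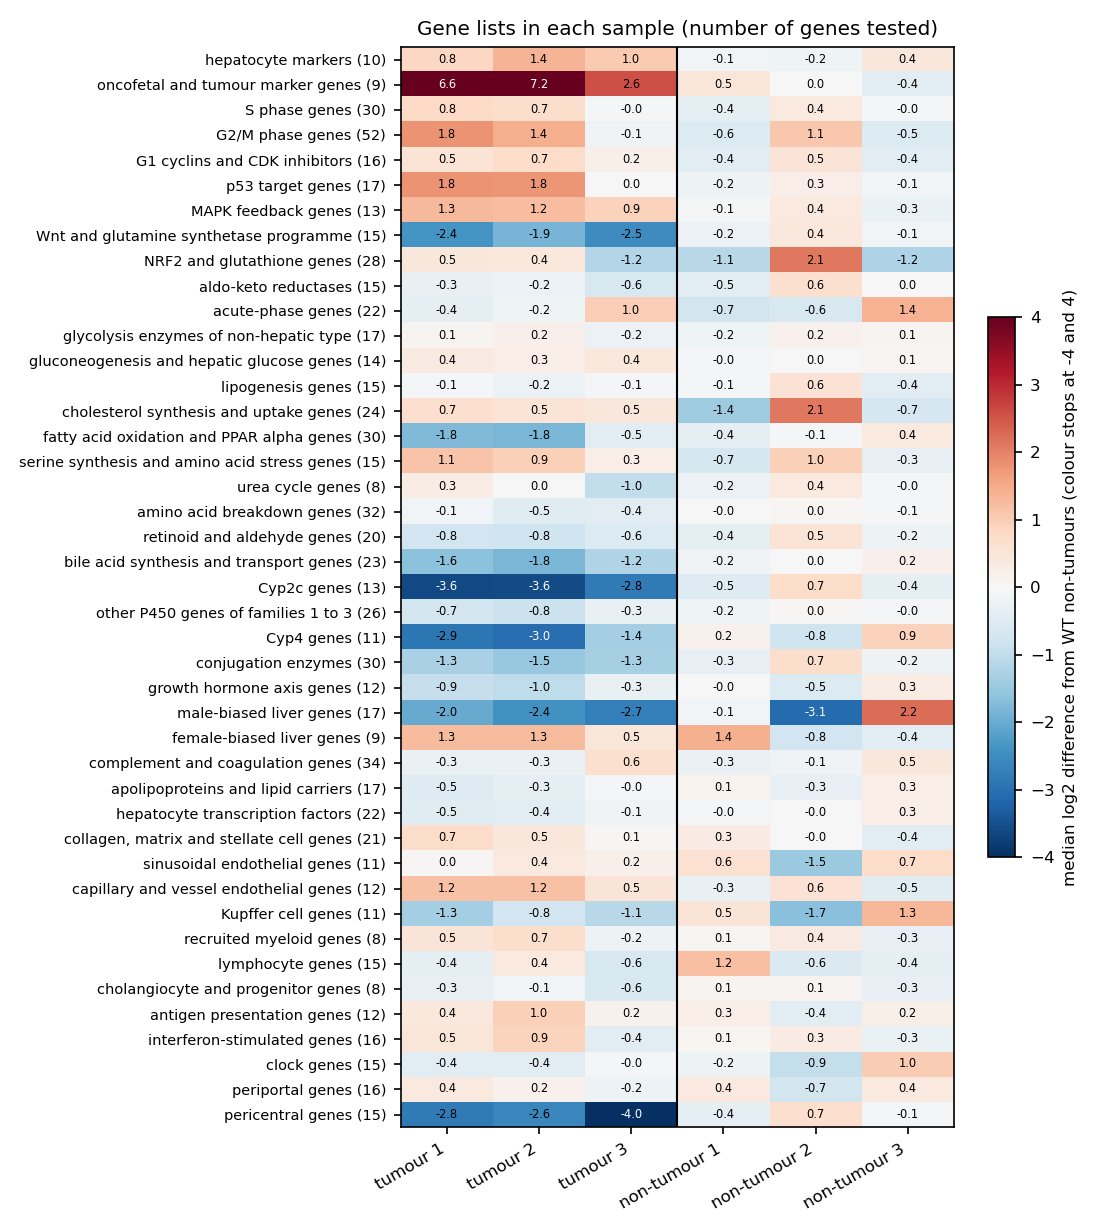
Each row of this heat map is a gene list and each column a sample, and the printed value and the colour (red above 0, blue below) give the median log2 difference of the genes of the list, taken for a tumour against the mean of the non-tumours and for a non-tumour against the mean of the other non-tumours. Tumour 3 is near 0 for the G2/M and p53 lists and is low, with the other tumours, for the Cyp2c and Wnt lists.

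Markers of other liver cells gave 1 call. Of 11 Kupffer cell genes 0 were called by limma (unadjusted p under 0.05 in 0 higher and 0 lower), with a median of -1.003 and a summed level of 141 to 298 TPM in the tumours and 196 to 799.7 TPM in the non-tumours. Clec4f, which is restricted to Kupffer cells, was at 2.79, 9.76 and 9.31 TPM in the tumours and 75.2, 5.95 and 124 TPM in the non-tumours (adjusted p = 0.267). Non-tumour 2 was among the tumours in this gene, and without it 4 Kupffer genes were called lower. All 11 Kupffer genes had a log2 fold change below 0, and in each of them the groups overlapped. Of 21 collagen, matrix and stellate cell genes 0 were called (unadjusted 9 higher and 3 lower). Of the list, 9 were above the non-tumours in every tumour, beside 24.8% of all genes without overlap in either direction. The list added up to 203 to 343 TPM in the tumours and 91.1 to 179.5 TPM in the non-tumours. Col1a1, the main fibrillar collagen, was at 14.5, 21.2 and 14.3 TPM in the tumours and 4.86, 8.45 and 1.29 TPM in the non-tumours (adjusted p = 0.115). Of 12 capillary and vessel endothelial genes, Esm1, a gene of sprouting endothelium, was called higher at 40.1, 35.3 and 21.7 TPM in the tumours and 1.68, 9.29 and 1.08 TPM in the non-tumours (log2 fold change 3.07, standard error 0.60, adjusted p = 0.0412), and the list added up to 145 to 258 TPM in the tumours and 119 to 159 TPM in the non-tumours. Esm1 (adjusted p up to 0.156) lost its call without any 1 of tumours 1 and 2 or non-tumours 1 and 3.

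The 11 sinusoidal endothelial genes, with Stab2 at 6.45, 6.91 and 6.59 TPM in the tumours and 8.05, 4.73 and 5.96 TPM in the non-tumours, gave 0 calls, as did 8 recruited myeloid, 15 lymphocyte, 8 cholangiocyte and 12 antigen presentation genes (unadjusted p under 0.05 in limma in 1, 0, 0, 1 and 5 genes higher and 0, 0, 0, 1 and 0 lower, in this order). Lymphocyte genes added up to 23.4 to 62.9 TPM in the tumours and 18.6 to 82.6 TPM in the non-tumours, and cholangiocyte genes to 35.1 to 67.1 TPM in the tumours and 44.8 to 101 TPM in the non-tumours. Krt19, the keratin that defines bile duct cells, was at 0.522, 0.656 and 0 TPM in the tumours and 1.31, 0.396 and 0.709 TPM in the non-tumours, near 0 in all samples. The summed levels of these lists were small beside those of the hepatocyte genes, of which Alb alone is a large part. Such sums do not give shares of cells, and the part of other cells in the differences above was not tested.

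The same contrast in GKO mice used 6 samples that had no part in the calls above. The gene lists were written with earlier results of these data known, so these samples may have had a part in choosing them. In the GKO contrast limma called 972 of the 14003 genes higher (6.94%) and 467 lower (3.33%) in tumours. The median log2 fold change over all genes was 0.20. Of the 302 genes called higher in WT, 294 had the same sign in GKO, 153 (50.7%) were called higher and 0 lower, and these were 15.7% of the GKO list. Of the 290 called lower, 267 had the same sign, 89 (30.7%) were called lower and 0 higher, and these were 19.1% of the GKO list. The median log2 fold change of the genes called higher was 2.03 in WT and 1.47 in GKO, and that of the genes called lower -1.81 and -0.99; the WT values are raised by the choice of the genes. In GKO, Gpc3 had a log2 fold change of 4.59 (adjusted p = 0.0937), Igfbp1 of 4.16 (adjusted p = 0.0947) and Tff3 of 6.09 (adjusted p = 0.0104). For Cyp2e1 it was -4.62 (adjusted p = 0.0950), for Cyp2c29 -2.10 (adjusted p = 0.133) and for Axin2 -1.53 (adjusted p = 0.0180). In the test of the difference between the genotypes, 2 of 14106 genes were called (0.0142%), Csn3 and Gm36325, a predicted gene, and 1483 had an unadjusted p under 0.05. No other gene can be said to be particular to WT tumours.

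In GKO tumours, 8 of 15 Wnt programme genes, 6 of 15 pericentral genes and 6 of 13 Cyp2c genes were called lower, against 8, 9 and 7 in WT. The pericentral list shares genes with the Wnt and Cyp2c lists, so these counts are not separate. In fatty acid oxidation 1 was called lower and 2 higher in GKO, against 6 lower in WT, and in cholesterol synthesis 17 were higher in GKO, against 0. G2/M genes called higher were 16 in GKO and 0 in WT, and collagen and stellate genes 12 and 0. In none of these lists was the difference between genotypes called for a single gene, so these counts do not show that the genotypes differ.

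For most called genes the 3 WT normal livers, which had no DEN, lay on the same side of the tumours as the non-tumours. How close they lay to the non-tumours was not measured. All 3 normal livers were below all tumours for 301 of the 302 genes called higher, and above all tumours for 255 of the 290 called lower. The same tumour values had chosen these genes, so such counts were largely set by the choice. They are not separate support for the calls, and the share over all genes is not given here. Afp averaged 1.28 ± 0.622 TPM (SD, n = 3) in the normal livers, Gpc3 0.329 ± 0.166, Cyp2e1 5423 ± 1081 and Glul 606 ± 22.8. The first pair was low and the second high, as in the DEN-treated non-tumours.

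Levels were also uneven by chromosome in WT tumour 3. Over the 395 genes of chromosome 8 with at least 5 TPM, the median log2 difference from the mean of the non-tumours was -0.44 in tumour 3 and -0.03 and 0.00 in tumours 1 and 2. Over the 228 genes of chromosome 14 it was -0.41, -0.06 and -0.04 in the same order. Chromosomes 1 and 18 were the highest in tumour 3, at 0.34 and 0.34, against -0.07 and 0.03 in tumour 1. Tumours 1 and 2 and the non-tumours departed from 0 by less than tumour 3 did on these chromosomes. Genes called lower were 30 of 760 tested on chromosome 8, 20 of 486 on chromosome 14 and 36 of 891 on chromosome 4, where 11, 2 and 13 were called higher. Chromosome 19, with a median of 0.02 in tumour 3, had 18 of 492 lower and 12 higher. Over all genes 2.07% were called lower and 2.16% higher. Chromosome 9 held 29 genes called higher and 8 lower of 756, and chromosome X 17 higher and 5 lower of 390. In tumour 3 the medians of chromosomes 4 and 9 were -0.20 and 0.22. These chromosomes were picked after their values were seen. The carboxylesterases named above, Ces1e, Ces1g, Ces3b and Ces1d, are on chromosome 8, and each was also called lower with tumour 3 left out. RNA levels alone do not give copy number, and the part of these shifts in the calls was not tested.

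**Figure D5:**
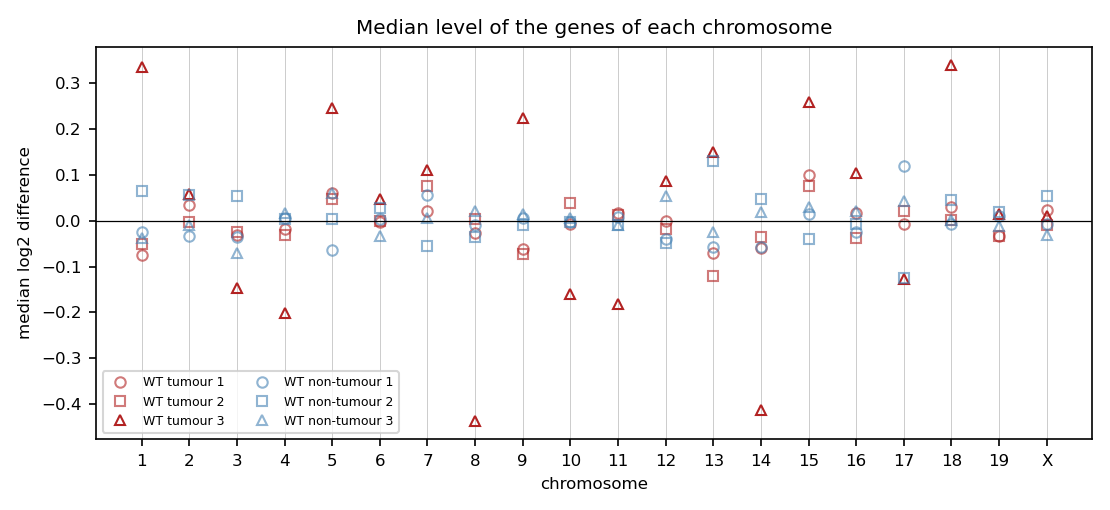
For each chromosome, the median log2 difference of its genes with at least 5 TPM is shown for each WT tumour against the mean of the non-tumours and for each non-tumour against the mean of the other non-tumours. Tumour 3 reaches -0.44 on chromosome 8 and 0.34 on chromosomes 1 and 18, and the other 5 samples stay nearer to 0 on these chromosomes.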

How the data were processed

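RNA was sequenced from 3 WT tumours and 3 WT non-tumours, put into groups by genotype and tissue as labelled. Alignment to mm10 by the authors used STAR 2.7.3a and counting used featureCounts 2.0.0, and they deposited TPM, the only unit used here, for 54838 genes; the annotation and the TPM formula are not given in the sources used here. Columns without a sample numbered 0. Of the genes, 54809 were found by identifier in GENCODE mouse release 21, whose exonic lengths turned 98.4% to 98.7% of low values (up to 30 reads) of the 6 samples into whole reads within 0.02; depth limits only genes near 3 reads, and counting intervals cover counting error only. For the 101 symbols listed more than once, rows were kept apart by identifier, and the row with the higher mean was named.

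The test was that of limma 3.58.1 (R 4.3.3; lmFit, then eBayes with a trend, 2-sided) on log2(TPM + 1) for genes averaging 0.5 TPM or more in the 6 samples, with Benjamini-Hochberg adjustment over all of them and a threshold of 0.05. An exact permutation test of 3 against 3 samples cannot give a p under 0.1 and was not used. The genotype difference was a contrast over the 12 DEN samples. The genes named are the 15 largest rises and falls among called genes without overlap, the first 2 genes of each of 43 lists and up to 4 called members of each list in each direction, with all called members where a list had 5 or fewer; a few others are marked as chosen after their values were seen, and in the lists of fetal, endothelial, pericentral and hepatocyte genes members that did not pass are named as examples in the same way. The lists and this comparison were chosen with earlier results of these data known. The alternatives tried were another pseudocount, filter, scaling, prior and set of samples, a block for the replicate number, each sample left out, WT tumours 1 and 2 averaged, and limma voom on recovered reads. The procedure was tested on simulated data. The rest was done in Python 3.11.15 (numpy 2.4.6, scipy 1.17.1, pandas 2.3.3, matplotlib 3.10.9). The protein measurements of the study were not analysed here, and a few genes that the rule picked are not reported here.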

Additional observations from a re-analysis of the deposited data

Results flagged for a closer look

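The rise in tumours differed between WT and GKO for 2 genes, by a test of the difference itself. For Csn3 (chromosome 5, 87925579 to 87932665, plus strand) the tumour effect on the log2 scale was 6.93 in WT and 0.69 in GKO, a difference of 6.24 (standard error 0.59, limma adjusted p = 0.00349, and 8.49e-06 to 0.217 over the alternatives). Csn3 was at 164, 134 and 92.3 TPM in WT tumours and at 0.0782, 2.89 and 0.0880 TPM in GKO tumours, so all WT tumours were above all GKO tumours, of which number 2 was the highest. For Gm36325, a predicted gene (chromosome 8, 91710233 to 91714413, minus strand), the effect was 3.46 in WT and 0.33 in GKO, a difference of 3.13 (standard error 0.31, limma adjusted p = 0.00349, and 0.000866 to 0.327 over the alternatives). It was at 8.18, 9.24 and 13.7 TPM in WT tumours and at 0, 0.424 and 0.465 TPM in GKO tumours, and the WT non-tumours held 1 read between them.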

How the results depend on the processing

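The counts of called genes moved with the setting. Against 302 higher and 290 lower, limma called 158 and 139 with no filter on low values, 831 and 818 with all 18 samples in one fit, 111 and 74 with WT tumours 1 and 2 averaged, and from 100 to 740 and from 63 to 623 with single samples left out (the most without WT tumour 3, the fewest without WT tumour 2, and 403 and 440 without WT non-tumour 2). With 0.1 added, a minimum of 5 TPM, centring, no trend or voom the counts stayed within 1.5 times the main ones. With the replicate block they were 191 and 170. Deviations from the group mean in tumour and non-tumour of the same number had correlations of 0.006, -0.009 and 0.245. Each mean rests on 3 samples, so these values do not decide whether samples of the same number came from the same mouse. The genotype difference gave 2 genes, and 0 with 0.1 added, 4 with no filter, 1 at 5 TPM or more, 0 with the replicate block, and 2 to 91 with single samples left out, 91 without WT tumour 3 and 17 without GKO tumour 2. Centring moved the median of all genes by -0.017. Of the 92 called genes that the rule for named genes picked, all 92 kept their sign in the 15 alternatives and 35 passed the threshold in each; the signs of the 62 picked genes without a call were not counted. The limits are 3 samples a group, a pair of tumours much alike, and the TPM scale, on which abundant rises such as Alb lower the share of every other gene.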

Other observations

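The families below were picked with their values in view and are given as values. The BEX and TCEAL genes are small genes that lie together on chromosome X and are best known from the nervous system. Of 8 tested, 5 were called higher in WT tumours by limma and 0 lower, with a median log2 fold change of 3.31, and 6 were called higher in GKO tumours (median 2.43). Bex2 was at 14.7, 20.8 and 58.5 TPM in the tumours and 0.270, 0.271 and 0.794 TPM in the non-tumours (log2 fold change 4.26, standard error 0.49, adjusted p = 0.00653), and Tceal5 was at 24.6, 23.5 and 22.2 TPM in the tumours and 0.289, 0.0970 and 0 TPM in the non-tumours (log2 fold change 4.44, standard error 0.19, adjusted p = 0.000206). In both, each tumour was above each non-tumour. Bex4 was at 6.50, 4.07 and 18.5 TPM in the tumours and 1.89, 123 and 0.286 TPM in the non-tumours (log2 fold change 0.23, standard error 1.62, adjusted p = 0.956), with WT non-tumour 2 above the tumours. Tceal9 (log2 fold change 2.36, standard error 0.46, adjusted p = 0.0397) lost its call without 5 of the 6 samples, and Bex3 (log2 fold change 4.36, standard error 0.57, adjusted p = 0.0104) without 1.

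Of 13 carboxylesterases, 7 were called lower and 1 higher in WT tumours (median -3.36), and 3 lower and 2 higher in GKO tumours (median -1.33). The exception was Ces2e, at 498, 497 and 389 TPM in the tumours and 75.4, 114 and 76.4 TPM in the non-tumours (log2 fold change 2.39, standard error 0.26, adjusted p = 0.00574), while Ces1c, an abundant esterase of mouse plasma, was at 174, 207 and 222 TPM in the tumours and 2082, 2984 and 1997 TPM in the non-tumours (log2 fold change -3.53, standard error 0.26, adjusted p = 0.00149). Of 14 Slc22 carriers of organic ions, 5 were called lower and 0 higher; Slc22a28 was at 0.181, 0.121 and 0 TPM in the tumours and 7.77, 5.44 and 6.68 TPM in the non-tumours (log2 fold change -2.79, standard error 0.20, adjusted p = 0.00149).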
